A study of Mus musculus with 14 samples.

Results

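RNA from 2500 sorted liver leukocytes was compared with RNA from 20000 of them. The members are the 3 libraries titled for 2500 sorted CD45+ cells and the 3 titled for 20000, together 6 of the 14 libraries of the series, and every gene with enough counts entered the comparison. All 6 came from the liver of untreated wild-type (WT) mice and are labelled as liver immune cells. Per the series' design, needle biopsies were taken from the liver and cells were sorted by flow cytometry on CD45, a phosphatase on the surface of nucleated blood cells. Libraries of 5000 and 10000 cells, 3 each, are given where they show the course between the ends of the range, and the other 2 libraries are bulk liver. The labels do not give the age, sex or number of the mice, and they do not say that libraries of one input came from separate mice. The p-values therefore measure only how far these libraries spread, and that spread may be technical.

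CD45+ cells of the liver are a mixture. They hold the resident macrophages (Kupffer cells) that clear debris from sinusoidal blood, monocytes, B cells and plasma cells, T cells, natural killer cells, dendritic cells and granulocytes. A sample of few cells holds few of a rare type, and its small amount of RNA has to be copied by polymerase chain reaction before it can be sequenced; each of these can affect how well a transcript is counted. In a bulk library, fewer cells of a type and less RNA per cell cannot be told apart.

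One of the genes that differed most clearly is a microRNA gene model, Mir6236. Its mature sequence is shown because it is the product after which the model is named, with the seed (bases 2 to 8) in capitals, from RefSeq on build GRCm38.p6 (chr9:110281353-110281371, plus strand).

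mmu-miR-6236: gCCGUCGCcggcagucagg

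The gene model in the count table is longer than this product (chromosome 9, 110281287 to 110281409), and the counts do not tell which part of it the reads covered.

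Total counts ran from 8603437 to 10091328 in the 2500-cell libraries and from 6723357 to 9272922 in the 20000-cell libraries. The sort marker told sorted from bulk libraries, but it cannot check the number of cells. Ptprc, the gene of CD45, is given in CPM (counts scaled to library depth, with the TMM factors of edgeR). It stood at 2585, 2588 and 2550 CPM at 2500 cells and at 2482, 2485 and 2483 CPM at 20000 cells. Its mean in bulk liver was 10.4 CPM. None of the 20 general leukocyte genes on a list of markers passed the test below. Libraries of one input differed by more than sampling noise, with a chi-square per degree of freedom of 2.26 to 13.7 over their 6 pairs, so none was a repeat deposit.

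Few genes differed between 2500 and 20000 cells. Of 14795 genes tested, 62 passed (0.419%), of which 50 were lower at 2500 cells (0.338%) and 12 were higher (0.0811%). A gene passed where its p from edgeR's quasi-likelihood test, adjusted by the Benjamini-Hochberg method over all genes, was below 0.05. Differences are given as log2 of 2500 over 20000 cells, so that a negative value means lower at 2500 cells and a change of 1 is 2-fold. Most of the differences were small: 18 of the 50 lower genes and 2 of the 12 higher genes reached 2-fold, and the median size over the 62 was 0.72. In each of the 62 genes the 3 libraries of one input lay wholly apart from the 3 of the other. Such separation was common, since it held for 17.0% of all genes tested, with 8.30% lower and 8.65% higher at 2500 cells.

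For a larger number of genes the data bounded the difference. The 95% interval lay within 2-fold in both directions for 11532 of 14792 genes (77.96%). That share was 99.3% of the 2419 genes above 100 CPM, 98.11% of the 7247 genes from 10 to 100 CPM and 39.41% of the 5126 genes below 10 CPM. The median difference over all genes tested was 0.01. For most genes below 10 CPM a 2-fold difference was not excluded at this depth and spread.

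The number that passed differed between settings. The test pools the spread of all 12 sorted libraries, and libraries of 2500 cells spread more widely than the others (a median SD of log2 CPM of 0.156, against 0.109 at 20000 cells). Its p-values may therefore be too small for this comparison. Fitted to the 6 compared libraries alone, where 14111 genes were tested, 17 genes passed, all lower at 2500 cells, and 16 of them were among the 62. With limma-voom 37 genes passed, and with limma-voom and a separate weight for each input, chosen after seeing the data, 12 passed, all lower and all among the 62. Leaving out 1 of the 12 libraries at a time gave 19 to 67 genes, the fewest without the second library of 20000 cells.

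**Figure D1:**
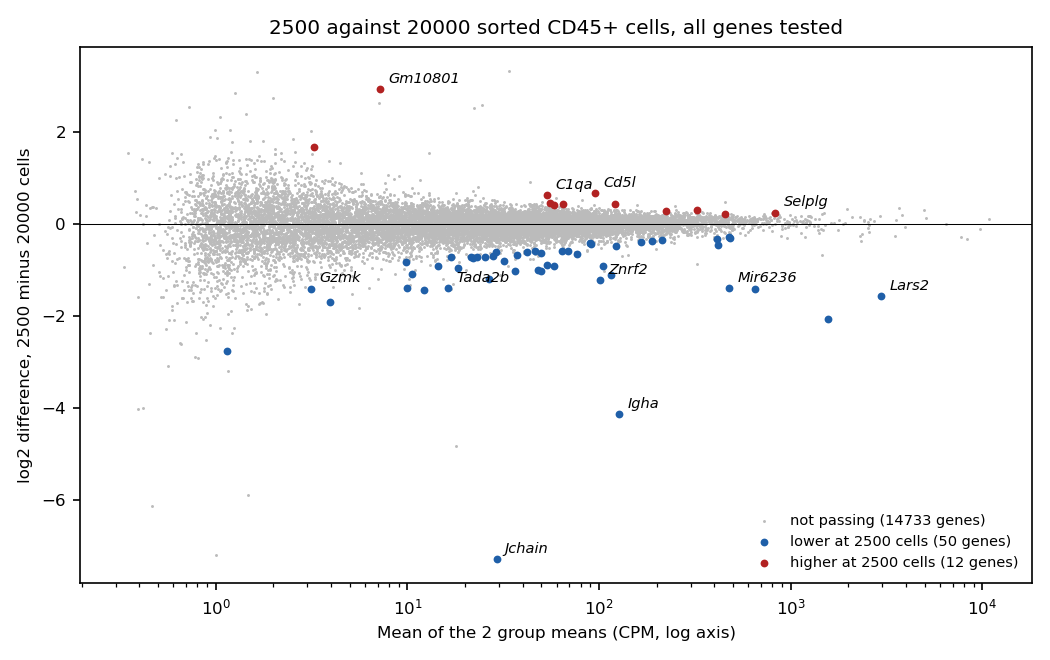
Each point is a gene, placed by its mean CPM over both inputs (log axis) and its log2 difference between 2500 and 20000 cells. The 50 genes that passed below 0 are blue, the 12 above 0 are red and the 14733 others are grey; Jchain and Igha lie far below the rest, and the cloud narrows as the level rises.

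The clearest difference lay in Lars2 and 3 gene models of non-coding RNA, which were lower at 2500 cells by 1.40 to 2.06 on the log2 scale and were highest at 20000 cells among the 4 inputs. Lars2 encodes the leucyl-tRNA synthetase of mitochondria (chromosome 9, 123366927 to 123462666, plus strand). It measured 1505, 1420 and 1534 CPM at 2500 cells and 4969, 3958 and 4348 CPM at 20000 cells. The groups are far apart, while the means at 5000 cells (1468 CPM) and 10000 cells (2032 CPM) lay nearer to the low group; by log2 mean, the 10000-cell libraries stood above those of 2500 cells by 0.45 for Lars2, 0.42 for Gm15564 and 0.80 for Gm23935, and at -0.01 for Mir6236. The difference was -1.57 (SE 0.08, 95% interval -1.73 to -1.42; adjusted p = 5.49e-09, edgeR). It was the only synthetase that passed: the other 34 tested synthetase genes lay between -0.21 and 0.44, and Lars, which charges the same transfer RNA outside mitochondria, stood at 99.5 ± 6.15 CPM at 2500 cells and 91.1 ± 9.74 CPM at 20000 cells (SD, n = 3 each).

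Gm15564 is annotated as an antisense RNA (chromosome 16, 35966752 to 35983230, minus strand). It measured 355, 334 and 377 CPM against 1073, 847 and 939 CPM, a difference of -1.42 (SE 0.08; adjusted p = 3e-08, edgeR). Gm23935, a gene model of 57 bases in a gene of the opposite strand, Zc3h7a (chromosome 16, 11144125 to 11144181), measured 618, 589 and 617 CPM against 3112, 2049 and 2444 CPM, a difference of -2.06 (SE 0.15; adjusted p = 0.000235). Mir6236 measured 265, 276 and 248 CPM at 2500 cells and 650, 701 and 727 CPM at 20000 cells, a difference of -1.40 (SE 0.10; adjusted p = 7.3e-07). In all 4 the 2500-cell libraries lay close together and below each 20000-cell library.

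All 4 were higher still in bulk liver, at means of 11917 CPM for Lars2, 2553 CPM for Gm15564, 9427 CPM for Gm23935 and 2608 CPM for Mir6236. The share of hepatocyte genes was 0.0561% to 0.0671% of counts at 2500 cells and 0.0518% to 0.0604% at 20000 cells. With that share as a covariate the differences were -1.56 for Lars2, -1.41 for Gm15564, -2.05 for Gm23935 and -1.33 for Mir6236. The part of RNA from other liver cells in them was not tested.

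Transcripts of Lars2 and Gm15564 share an exact run of 52 bases in the same orientation, so the counts of this pair are uncertain where reads fell in it. The longest run shared by any other pair of the 4 in that orientation was 13 bases. Runs in the opposite orientation, or shared with sequences outside the 4, were not looked for. In the deposited TPM, a measure per transcript length made apart from the counts, Mir6236 and Gm23935 are listed at 0 in all 12 sorted libraries and Gm15564 in 11 of them. Lars2 was lower there too, with means of 629.6 TPM at 2500 cells and 1880 TPM at 20000 cells.

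Some other genes that were lower at 2500 cells stood near the level of 20000 cells already at 10000 cells, among them Qk, Purb, Fam120a, Tada2b, Brd1, Mbd2 and Znrf2. The gene lists used here were written with earlier results of these data known. A list count above the share of all genes is therefore not a finding about that list. Qk, a protein that binds messenger RNA and steers splicing and stability (chromosome 17, 10202601 to 10319854, minus strand), measured 81.2, 69.9 and 67.4 CPM at 2500 cells. At 20000 cells it measured 178, 159 and 134 CPM. The means between were 116 CPM at 5000 and 172 CPM at 10000 cells. The difference was -1.11 (SE 0.12, 95% interval -1.37 to -0.84; adjusted p = 0.000322, edgeR). Qk and Lars2 were the 2 genes that passed under each of the 24 alternative settings that were run. Mir6236 and Gm23935 passed in 23 of the 24 and had no TPM value to test in the remaining setting.

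A pair of other genes on a list of 36 mRNA-binding regulators also passed. So 3 of the list were lower, against 0.338% of all genes tested, and none was higher. Purb, which binds purine-rich single strands, measured 42.2, 37.2 and 33.2 CPM against 74.2, 66.3 and 67.6 CPM (-0.88, SE 0.14; adjusted p = 0.00485). Fam120a, an RNA-binding scaffold protein, measured 55.6, 58.1 and 63.8 CPM against 101, 96.3 and 82.8 CPM (-0.66, SE 0.10; adjusted p = 0.00426). The list's median was -0.16, against 0.01 over all genes. Pura, the close relative of Purb, had the values 33.2, 28.4 and 24.8 CPM against 37.8, 39.1 and 42.4 CPM and did not pass (adjusted p = 0.0871), and neither did the Argonaute genes Ago1 to Ago4, which lay between -0.18 and 0.22. Gm11973, the antisense gene model whose span overlaps that of Purb by 493 bases, had lower counts as well (7.42, 6.63 and 5.68 CPM against 18.7, 20.7 and 14.3 CPM; -1.44, SE 0.22). Whether counting used the strand is not given in any source used here, so reads of these 2 genes cannot be told apart in the shared stretch.

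Tada2b, an adaptor subunit of the histone acetyltransferase complex SAGA, measured 8.84, 9.44 and 8.46 CPM at 2500 cells and 24.4, 24.1 and 22.2 CPM at 20000 cells (-1.40, SE 0.20; adjusted p = 0.00321, edgeR). The tight low group and the tight high group were bridged by 5000 cells, where the libraries ran from 9.08 to 18.3 CPM. Taf8, a subunit of the general factor TFIID, was higher at 2500 cells, at 63.2, 61.9 and 68.0 CPM against 42.9, 47.7 and 49.0 CPM (0.46, SE 0.10; adjusted p = 0.0441), a call that 11 of the 12 fits without 1 library lost, including the 6 that left out a compared library. The other 28 of 30 tested coactivator genes did not pass, and the list's median was -0.01. Outside that list, Brd1, a bromodomain scaffold of acetyltransferase complexes, measured 39.2, 30.2 and 29.8 CPM against 69.3, 70.6 and 60.1 CPM (-1.01, SE 0.16). Mbd2, a reader of methylated DNA, measured 84.8, 66.3 and 68.7 CPM against 138, 144 and 129 CPM (-0.90, SE 0.14).

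On the list of 31 ubiquitin ligases and adaptors, 2 were lower, against 0.338% of all genes tested, and none was higher. Znrf2, a membrane-bound ubiquitin ligase, measured 62.8, 56.7 and 62.9 CPM against 167, 146 and 114 CPM (-1.22, SE 0.16; adjusted p = 0.0037, edgeR). Its mean at 10000 cells was 175 CPM, above that of 20000. Kctd12, a membrane receptor subunit whose family includes ubiquitin ligase adaptors, took the other course. It measured 39.7, 36.3 and 45.3 CPM at 2500 cells and 63, 87.3 and 77 CPM at 20000 cells (-0.91, SE 0.13; adjusted p = 0.00321), with 40.6 CPM at 10000 cells, as low as at 2500. Of their relatives, Znrf1 (0.03), Kctd5 (0.08), Kctd9 (-0.46) and Znrf3 (-1.08; adjusted p = 0.117) did not pass, and the median of the list was 0.03.

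**Figure D2:**
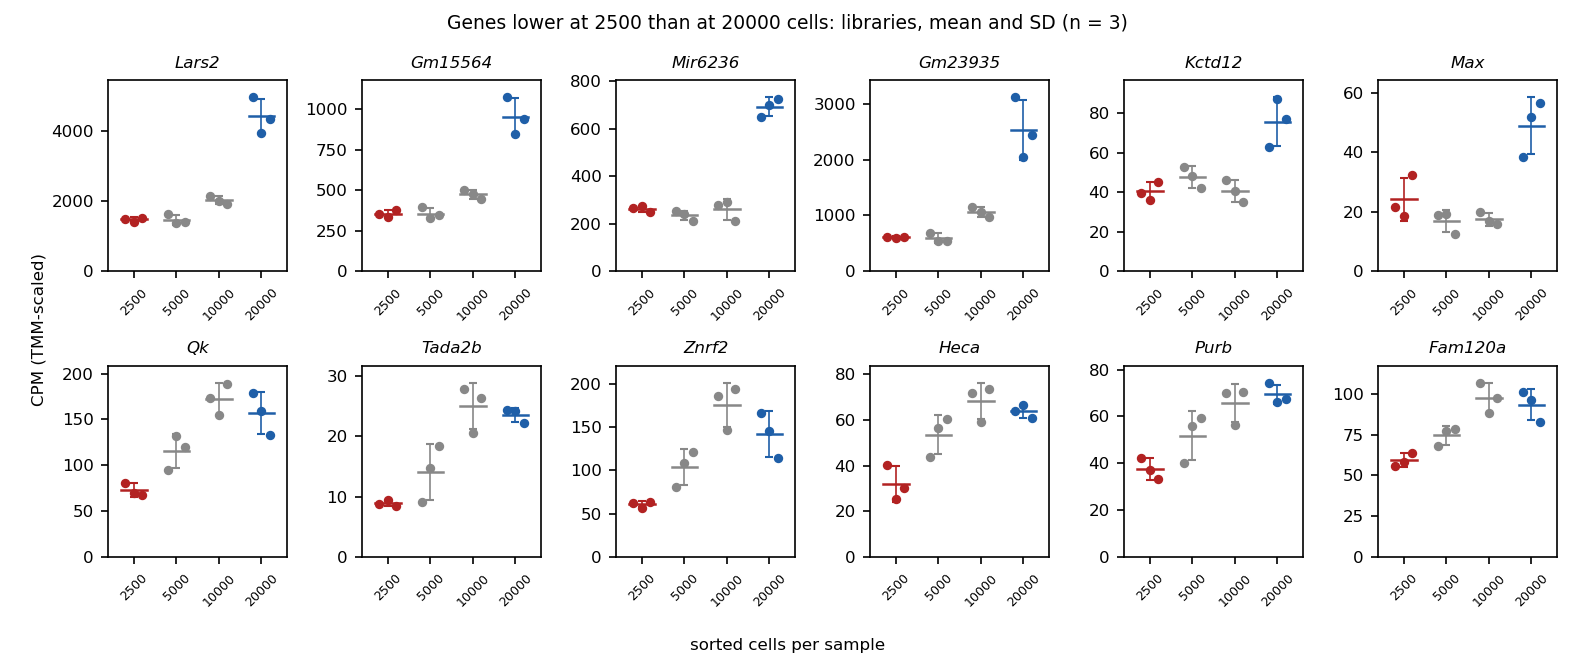
CPM of 12 genes that were lower at 2500 than at 20000 cells, by number of sorted cells; points are libraries, bars the mean and SD of 3. In the upper row 20000 cells are highest and 10000 cells lie nearer to 2500, and in the lower row 2500 cells are lowest and 10000 cells match 20000.

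By log2 level at 10000 cells, 29 of the 50 lower genes stood nearer to 20000 than to 2500 cells, and 21 stood nearer to 2500. This split was made after seeing the data. It placed every gene, also those near the middle, where Epg5 stood at 0.51 of the way up and Inpp4a at 0.40. The split therefore does not show that the genes follow separate courses. The first set held Heca (40.4, 25.2 and 30.2 CPM against 63.9, 66.5 and 60.7 CPM; -1.0, SE 0.15), whose fly counterpart is the imaginal cell regulator headcase. It also held the oxygen sensor Egln1 (18.4, 12.7 and 17.5 CPM against 45.8, 34.8 and 30.3 CPM; -1.19, SE 0.22), the endosomal GTPase Rab21 (-0.59), the phosphatase subunit Ppp2cb (-0.66), the magnesium transporter Cnnm3 (-0.96) and the zinc finger gene Zcchc2 (-0.81). The second set held Sub1, a transcription coactivator, at 366, 314 and 375 CPM against 535, 445 and 458 CPM (-0.45, SE 0.08), the tubulin-folding cofactor Tbca (-0.61), the cargo receptor Tmed10 (-0.41), the ETS family factor Elf2 (-0.44) and Lsm8, a subunit of the spliceosome (-0.69). Max, the partner of MYC, was in the second set too, at 21.6, 18.5 and 32.4 CPM against 38.3, 51.7 and 56.7 CPM (-1.02, SE 0.20).

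The sets differed in transcript length, a property that played no part in choosing them. Protein-coding genes of the first set had a median transcript of 5101.5 bases with a 3′ untranslated region of 2395.5 bases, and those of the second set had 1982 and 982.5 bases. Over the 12221 protein-coding genes with values the medians were 3107 and 1176 bases. Of the 42 protein-coding genes that were lower, 45.2% had a 3′ untranslated region over 2000 bases, as against 30.5% of all tested and 16.7% of the 12 that were higher. Median GC content was 49.9% for the lower genes, 54.4% for the higher ones and 50.0% for all. These are descriptions with no test.

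The largest difference belonged to an antibody gene. Jchain, which encodes the chain that joins secreted IgA and IgM (chromosome 5, 88519809 to 88527891, minus strand), had 6, 4 and 0 counts in the 2500-cell libraries. In the 20000-cell libraries it had 392, 521 and 452 counts. On the CPM scale the values were 0.655, 0.402 and 0 against 58.6, 56.5 and 58.8. The libraries of 5000 cells ran from 54.6 to 114 CPM and those of 10000 cells from 46.9 to 80.5 CPM, so that the 3 libraries of 2500 cells stood alone. The difference was -7.28 with a 95% interval from -9.55 to -5.0 (adjusted p = 0.000146, edgeR). The call was lost with limma-voom (adjusted p = 0.107) and with a weight per input (0.275), both of which kept the size of the difference, at -7.73.

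Igha, the constant region of the IgA heavy chain (chromosome 12, 113254830 to 113260236, minus strand), measured 9.28, 28.1 and 2.66 CPM at 2500 cells and 209, 211 and 300 CPM at 20000 cells (-4.13, SE 0.64; adjusted p = 0.0456). The groups did not overlap, but the low group was wide, and 10 of 12 fits that left out 1 library lost the call (adjusted p up to 0.185). Of 161 immunoglobulin variable segments tested, 2 were lower, Ighv1-63 (-2.75, SE 0.58) and Ighv1-81 (-1.39, SE 0.30), and none was higher. Over all genes tested 0.338% were lower. The median of the segments was -0.18, with 105 below 0 and 56 above. Tnfrsf17, a receptor on plasma cells that was singled out after its values were seen, had too few counts to be tested. It had 0 counts in each 2500-cell library and 4, 3 and 8 counts at 20000 cells. At 5000 and 10000 cells its counts ran from 5 to 9. Its pooled 0.632 CPM at 20000 cells was 5.9-fold a floor of 3 counts over the 2500-cell group (0.107 CPM). That floor covers counting error at 2500 cells only, and the error of the 15 counts at 20000 cells was left out. In all, 171 genes had 0 counts in all 3 libraries of 2500 cells and counts in all 3 of 20000, and 46 had the reverse.

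The other genes of antibody-secreting cells did not follow in size. Of 24 tested genes on the plasma cell and secreted immunoglobulin list, 2 were lower (Jchain and Igha), against 0.338% of all genes tested. None was higher, and the median was -0.14. Mzb1, a chaperone of antibody assembly, had 91.7, 76.5 and 93.6 CPM against 125, 103 and 110 CPM (-0.37, SE 0.10; adjusted p = 0.104). Xbp1, the transcription factor of the secretory program, had 298, 309 and 321 CPM against 311, 293 and 300 CPM (0.04, 95% interval -0.08 to 0.15). Ighm, the heavy chain of IgM that B cells carry, had 3843, 3331 and 3842 CPM against 3523, 3361 and 3442 CPM (0.09, 95% interval -0.06 to 0.25). Constant regions of IgG were uneven between libraries of one input: Ighg1 had 101 CPM in 1 library of 20000 cells and at most 3.6 CPM in the 5 others of the comparison. The summed share of the 26 list genes was 0.553%, 0.490% and 0.544% of counts at 2500 cells and 0.636%, 0.592% and 0.610% at 20000 cells. These did not overlap, and the exact two-sided permutation p was 0.1, the smallest that 3 against 3 can give.

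Among myeloid genes, 2 of monocytes were lower at 2500 cells and 2 of Kupffer cells were higher. On the monocyte list of 18 genes, 2 were lower, against 0.338% of all genes tested, and none was higher. The list's median was -0.12, with 13 values below 0. Ly6c2, the surface antigen of classical monocytes, measured 422, 421 and 453 CPM against 585, 492 and 526 CPM (-0.31, SE 0.06; adjusted p = 0.0334, edgeR). Ms4a6c, a membrane protein of the same cells, measured 137, 144 and 148 CPM against 185, 187 and 188 CPM (-0.38, SE 0.07; adjusted p = 0.0334). Both groups were tight, and both genes were as low at 10000 cells, at 403 and 149 CPM on average. Plac8 (-0.33; adjusted p = 0.0669) and Spn (-0.37; 0.0983) did not pass. Ccr2, the receptor that draws monocytes out of the marrow, lay at 0.02, and the lysozyme gene Lyz2 at -0.11.

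Lower too were Ifitm3, an interferon-induced antiviral membrane protein, at 364, 344 and 388 CPM against 487, 427 and 456 CPM (-0.32, SE 0.06; adjusted p = 0.0334), and Fcer1g, the signalling chain shared by Fc receptors, at 442, 406 and 434 CPM against 557, 495 and 520 CPM (-0.29, SE 0.06; adjusted p = 0.0409).

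On the Kupffer cell list of 20 genes, 2 were higher, against 0.0811% of all genes tested, and none was lower. The list's median was 0.31, with 15 values above 0. C1qa, a chain of the complement starter C1q, measured 56.3, 64.3 and 73.9 CPM at 2500 cells and 42.3, 40.9 and 43 CPM at 20000 cells (0.62, 95% interval 0.38 to 0.87; adjusted p = 0.0285). Its partner chains had adjacent values without passing, C1qb at 0.41 (adjusted p = 0.114) and C1qc at 0.53 (0.077). Cd5l, a secreted macrophage protein, measured 104, 136 and 110 CPM against 76.1, 79.2 and 64.6 CPM (0.67, 95% interval 0.38 to 0.96; adjusted p = 0.0436). The scavenger receptor gene Marco had the largest value on the list, 1.54, but its 2500-cell libraries scattered at 22.7, 25.8 and 9.27 CPM against 6.58, 6.18 and 7.15 CPM, and it did not pass (adjusted p = 0.0624). The Kupffer cell lectin Clec4f had 154, 161 and 226 CPM against 134, 141 and 131 CPM (0.41; adjusted p = 0.273). The macrophage antigen Adgre1 lay at 0.05, with 73.8, 132 and 91.5 CPM against 86.5, 105 and 95.3 CPM.

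The summed share of Kupffer cell genes was 0.233%, 0.251% and 0.262% of counts at 2500 cells and 0.208%, 0.228% and 0.207% at 20000 cells. That of monocyte genes was 1.37%, 1.46% and 1.49% against 1.61%, 1.52% and 1.54%. Neither pair of groups overlapped (exact two-sided permutation p = 0.1 each, the smallest possible). Of 32 lists, 7 showed such separation, and over the 32 the adjusted p was 0.427 for each of these. With the 6 compared libraries alone no Kupffer cell or monocyte gene passed.

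The other genes that were higher at 2500 cells included single genes of lymphocytes; no B cell or natural killer list gene passed. Cd6, a T cell coreceptor, measured 157, 141 and 121 CPM against 104, 102 and 103 CPM (0.44, SE 0.09; adjusted p = 0.0489, edgeR). It was the only one of 23 tested T cell genes that passed, and the list's median was 0.01. S1pr1, the receptor by which lymphocytes leave tissue, measured 490, 478 and 507 CPM against 418, 430 and 415 CPM (0.22, SE 0.05; adjusted p = 0.0495), a call that each of the 12 fits without 1 library lost. Selplg, a ligand of selectins, measured 866, 874 and 960 CPM against 771, 741 and 761 CPM (0.25, SE 0.05; adjusted p = 0.046). On the egress and quiescence list these 2 of 17 genes were higher and none was lower, and Klf2, a factor that drives S1pr1, had 1171 ± 39.6 CPM against 1155 ± 45 CPM (SD, n = 3).

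Dgka, a kinase that dampens T cell receptor signals, measured 357, 379 and 335 CPM against 282, 307 and 279 CPM (0.30, SE 0.06). Cd2bp2, a protein that binds the tail of the T cell surface protein CD2, measured 71.0, 78.4 and 73.4 CPM against 55.0, 55.0 and 55.8 CPM (0.43, SE 0.08). Uba7, the enzyme that activates the ubiquitin-like ISG15, measured 236, 258 and 240 CPM against 187, 208 and 204 CPM (0.29, SE 0.06). It was the only one of 19 genes on the interferon-stimulated list that passed. The interferon-induced gene Ifitm3, which was not on that list, passed in the other direction (-0.32). Faah, a fatty acid amide hydrolase, measured 66.5, 71.1 and 62.3 CPM against 51.5, 48.5 and 49.4 CPM (0.42, SE 0.09). The 2 genes higher by more than 2-fold had few counts: Gm10801, a gene model, at 23.6, 6.63 and 7.99 CPM against 1.65, 1.41 and 1.95 CPM, and Selenbp2, a selenium-binding protein, at 4.69, 6.13 and 3.94 CPM against 1.94, 1.08 and 1.69 CPM. None of the 12 higher genes passed with the 6 compared libraries alone. Over the 12 fits without 1 library, Gm10801 kept its call in 9, C1qa in 8, Cd2bp2 in 7, Cd5l in 5 and Selenbp2 in 3. Dgka kept its call in 2, Cd6, Selplg, Uba7, Faah and Taf8 in 1 each, and S1pr1 in 0.

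**Figure D3:**
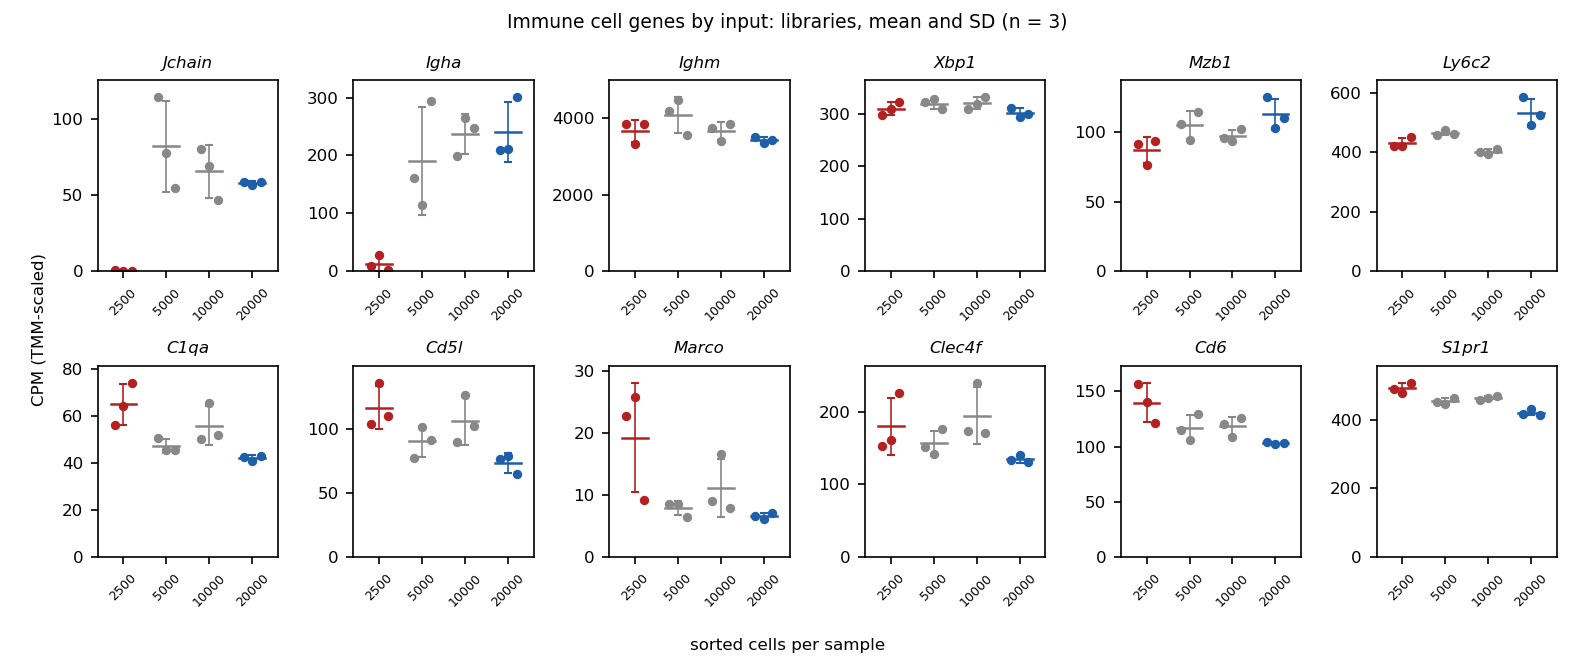
CPM of 12 genes of immune cells by number of sorted cells; points are libraries, bars the mean and SD of 3. Jchain and Igha are near 0 at 2500 cells alone, Ighm and Xbp1 overlap between 2500 and 20000 cells, Ly6c2 stands out at 20000 cells, and C1qa, Cd5l, Cd6 and S1pr1 are higher at 2500 than at 20000 cells.

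Of the 542 tested genes on the 32 lists, 18 passed (3.32%), 11 lower and 7 higher at 2500 cells. This share is not to be read against the 0.419% of all genes, because the lists were written with earlier results of these data known. With the 6 compared libraries alone 8 list genes passed. In 22 lists no gene passed, and 28 lists had a median within 0.25 of 0. The B cell (median 0.10), MHC class II (0.03), natural killer (0.04), dendritic cell (-0.09), immediate early (0.01), heat shock (0.09) and ribosomal protein (-0.12) lists were among these.

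**Figure D4:**
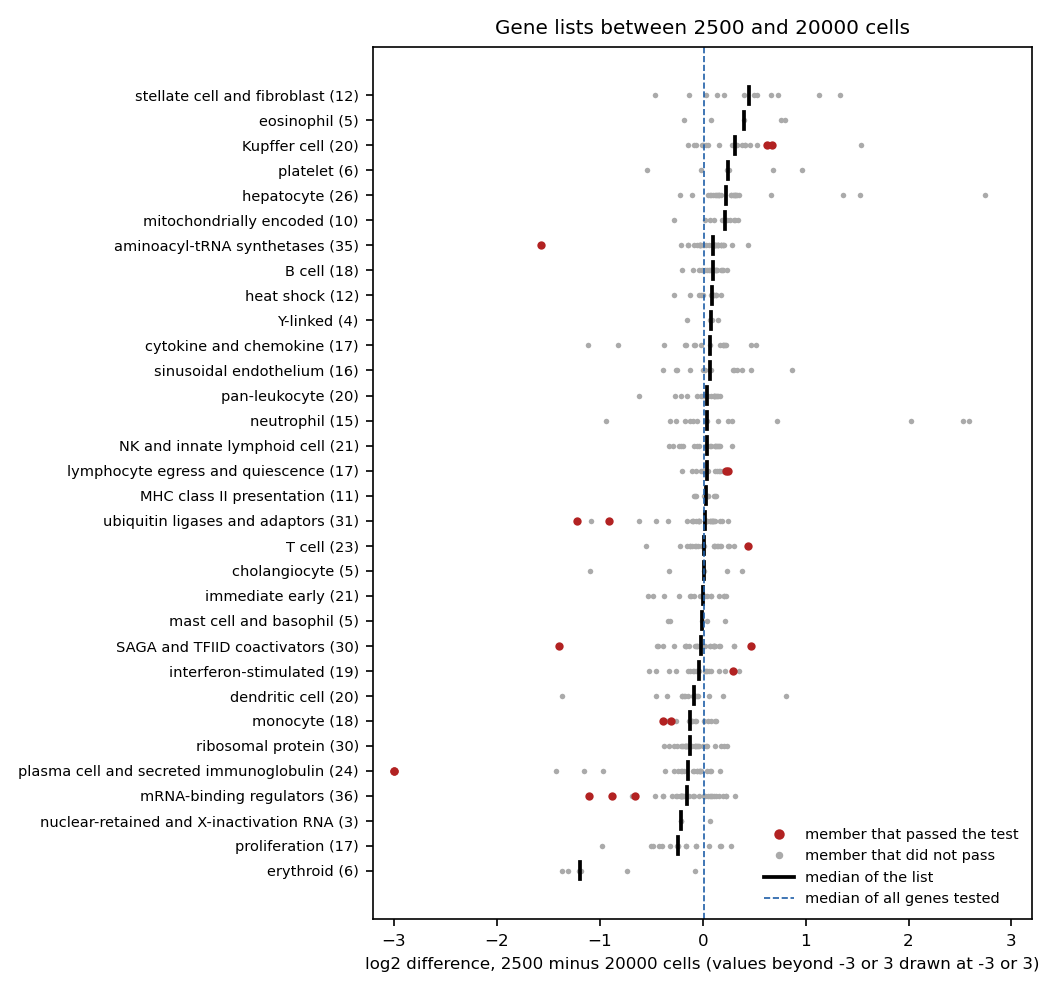
Log2 difference between 2500 and 20000 cells of each tested gene on 32 lists, with the number tested in brackets; black bars are list medians and the dashed line is the median of all genes. Genes that passed (red) lie in 10 lists, and the erythroid list has the lowest median, -1.20, with no gene that passed.

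Lists named for cells outside the sort were measured as well. The 26 hepatocyte genes took 15.7% of counts in bulk liver on average, 0.0561%, 0.0671% and 0.0608% of counts at 2500 cells and 0.0604%, 0.0518% and 0.0550% at 20000 cells, which overlap (exact permutation p = 0.2). None of them passed, and 24 of 26 lay above 0, with a median of 0.22. When that share entered the test as a covariate 21 genes passed, and 20 of these were among the 62. C1qa (0.57, adjusted p = 0.0919, edgeR) and Cd5l (0.54, adjusted p = 0.118) did not pass in that fit. Genes of stellate cells and fibroblasts took 0.00576%, 0.00720% and 0.00657% of counts at 2500 cells and 0.00454%, 0.00560% and 0.00515% at 20000 cells, without overlap (exact two-sided permutation p = 0.1, the smallest possible; 0.427 adjusted over the 32 lists), against 0.0415% in bulk liver. None of the 12 tested genes of that list passed, 10 lay above 0 and the median was 0.45. Genes of sinusoidal endothelium took a mean of 0.0612% at 2500 cells, 0.0608% at 20000 cells and 0.0547% in bulk liver, and none of the 16 passed. Platelet genes took 0.00403%, 0.00455% and 0.00137%. Neither the endothelial nor the platelet share was smaller in sorted cells than in bulk liver. Neither list therefore measures cells outside the sort. The part of RNA from these cells in the results on leukocyte genes was not tested.

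Of 6 tested erythroid genes none passed although all lay below 0. The beta-globin gene Hbb-bs had 2.40, 25.8 and 1.16 CPM against 29.2, 28.3 and 16.9 CPM, so that 1 library of 2500 cells stood with the high group. With all libraries the difference was -1.31 (adjusted p = 0.556, edgeR). Fits without 1 of the 12 libraries gave -3.78 to -0.81, with adjusted p from 7.95e-05 to 0.743. The value of -3.78 came from leaving out that 1 library, which went against the difference, so its p is no support for a difference.

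Granule genes of maturing neutrophils were carried by single libraries. At 2500 cells this was the second library, which was also the highest of its input for Hbb-bs and Igha. Ngp had 126 CPM in that library and 0 and 0.463 CPM in the others, against 8.68, 12.0 and 0 CPM at 20000 cells. Ltf, which encodes lactoferrin, had 112 CPM in the same library and 1.09 and 0 CPM in the others. Neither passed (adjusted p = 0.727 and 0.724), and at 5000 and 10000 cells, too, 1 library of the 3 held most of the counts. The general neutrophil gene S100a9 did not share this pattern, with 424 ± 98.3 CPM against 478 ± 74.6 CPM (SD, n = 3).

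Replicate libraries of 2500 cells differed more among themselves than those of 20000 cells. For 11069 genes at 5 CPM and over, the median SD of log2 CPM between the 3 libraries was 0.156 at 2500 cells, 0.118 at 5000, 0.109 at 10000 and 0.109 at 20000 cells. The ratio of the ends was 1.43, and 67.8% of genes had the larger SD at 2500 cells. Thinning each library to the same depth left the ratio at 1.43. The biological coefficient of variation that edgeR fitted within each input was 0.179 at 2500, 0.113 at 5000, 0.0891 at 10000 and 0.0772 at 20000 cells. Between any 2 libraries of 2500 cells 1.50% to 1.88% of genes were more than 2-fold apart, against 0.108% to 0.325% for 20000 cells.

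The lists did not share this equally. Mitochondrially encoded genes had a median SD of 0.464 at 2500 cells and 0.0537 at 20000 cells. Their share of counts was 2.92%, 3.90% and 2.02% against 2.65%, 2.75% and 2.92%. So 2 of the 3 libraries of 2500 cells lay outside the range of the 20000-cell ones. The second library, which also held most of the Ngp and Ltf counts of its input, lay above that range, and the third lay below. The cytochrome b gene mt-Cytb had 5551, 7231 and 3711 CPM against 4308, 4400 and 4650 CPM (0.30, adjusted p = 0.569, edgeR). Fits without 1 of the 12 libraries gave 0.06 to 0.51, with adjusted p from 0.0337 to 0.902. The largest value came without the third library of 2500 cells. MHC class II genes had 0.150 against 0.0651, and mRNA-binding regulators 0.166 against 0.0886. Ribosomal protein genes went the other way, with 0.0704 at 2500 cells and 0.113 at 20000 cells.

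**Figure D5:**
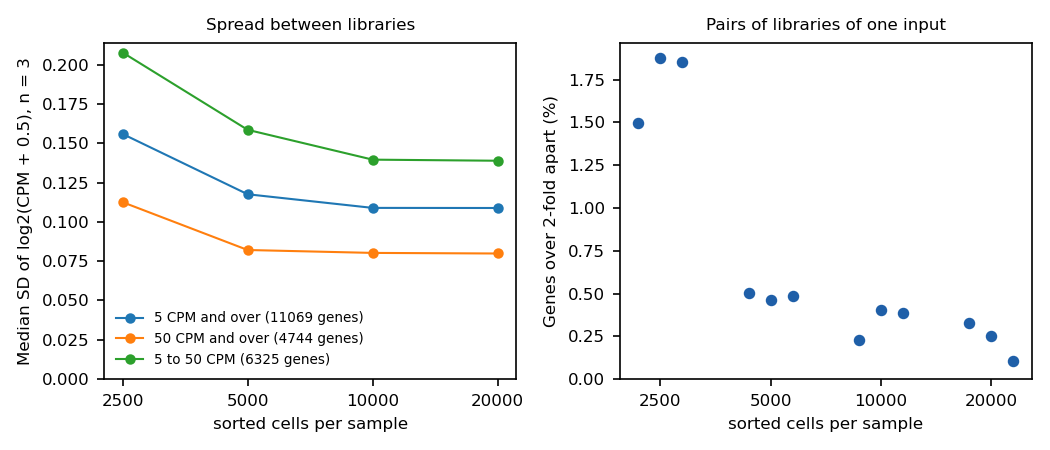
Left, the median SD of log2(CPM + 0.5) between 3 libraries, by number of sorted cells, for all genes at 5 CPM and over and for 2 ranges of level; right, the percentage of genes more than 2-fold apart in each of the 3 pairs of libraries of one input. Both are highest at 2500 cells.

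At equal depth, libraries of 2500 cells had fewer genes with at least 1 count. After thinning to 6723357 counts the numbers were 19607, 19055 and 19060 genes at 2500 cells and 19976, 19931 and 20087 genes at 20000 cells. The means were 19241 ± 317 and 19998 ± 80.3 (SD, n = 3), and the groups did not overlap (exact two-sided permutation p = 0.1, the smallest possible). Genes with at least 5 counts numbered 15030 ± 27.8 and 15082 ± 36.6, which overlap, so the difference lay in genes with fewer than 5 counts. Genes with 0 counts in all 3 libraries of 2500 cells and counts in all 3 of 20000 numbered 171, and 46 genes had the reverse. Thinned to equal depth they numbered 182 and 41. Of the 171, 86 are protein-coding, and the one with the most counts at 20000 cells, the transporter gene Abca8b, had 21 counts over the 3 libraries.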

How the data were processed

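RNA of 12 sorted samples was copied with a SMART-seq kit for low input and made into libraries by tagmentation, per the labels' protocols. The submitters' processing notes name build GRCm38 and, with no order, featureCounts 1.5.1, STAR 2.5.2b, DESeq2 1.34.0, FastQC 0.11.5 and RSEM 1.3.0. No source used here gives the strand setting. The authors deposited raw counts for 48794 gene IDs, which were tested, and TPM, which served as an alternative. A table of variance-stabilised values, also deposited by the authors, was not used. Symbols and coordinates came from GENCODE M21 and matched 48434 IDs.

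Genes low in all inputs were removed with filterByExpr, libraries were scaled by TMM, and edgeR 4.0.16 (R 4.3.3) fitted one mean per input over the 12 sorted libraries with its robust quasi-likelihood F test. The 2500-cell mean was set against the 20000-cell mean with Benjamini-Hochberg adjustment over 14795 genes and a threshold of 0.05. Intervals of 95% used the fitted standard error. Per-library CPM are TMM-scaled, and the fit was tested on simulated data. Lists were described by counts and medians; summed shares and detected genes had exact permutation tests. Total counts of the 12 libraries ran from 6723357 to 14496314. The floor of 3 counts for Tnfrsf17 covers counting error at 2500 cells only, while the 95% intervals carry the fitted spread between libraries.

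Genes named were those called with at least 5 CPM in either group, up to 30 per direction by p, the called and the 2 most abundant genes of each list, and up to 3 numbered gene models. Max, Fcer1g, Gm10801, Gm11973, Selenbp2, Ighv1-63, Ighv1-81, Tnfrsf17, Abca8b and list genes named though neither called nor among the most abundant were chosen after their values were seen. So were the split of genes at 10000 cells, the length limit and the spread by list. Members and lists were chosen with earlier results of these data known. Alternatives were other tools (DESeq2 1.42.0, limma 3.58.1), filters, scalings, samples, a replicate block, a hepatocyte covariate, and TPM with a pseudocount of 1.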

Additional observations from a re-analysis of the deposited data

How the results depend on the processing

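The 62 genes called became 17 with only the 6 compared libraries, 397 with no filter on low counts, 21 with the hepatocyte share as covariate, 267 with DESeq2, 37 with limma-voom, 12 with voom weights per input (an alternative chosen after seeing the data) and 7 with limma on log2(TPM + 1). Of these, 16, 61, 20, 57, 36, 12 and 5 were among the 62, and the cause was not tested. The lower share of calls, 80.6% in the main test, was 100% with the 6 libraries and 66.7% with DESeq2. Other scalings, a 5 CPM filter and all 14 libraries gave 57 to 72 calls. Leaving out 1 library gave 19 to 67 calls, with 36, 19 and 22 without library 1, 2 or 3 of 20000 cells, 39 without library 2 of 2500 cells, and 35 to 38 without library 1 of 5000 or library 2 or 3 of 10000 cells. Of the 62, 13 passed in each of the 12 such fits, and Stk24, Taf8, Tmbim6 and S1pr1 passed in none of the 6 that left out a compared library. With the 6 libraries, 8 list genes passed, not 18. Gm15564 reversed on the TPM scale (0.24, adjusted p = 0.621, limma), where it is listed at 0 in 11 libraries. Mir6236 and Gm23935 gave no TPM value.

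With the replicate number as a block 68 genes passed, 53 of them among the 62. Same-numbered libraries of the compared inputs had correlations of -0.10, 0.22 and 0.00 in their deviations, and 1 of 3 libraries matched its own number best, so the numbers were not taken as a pairing.

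The difference in detected genes at equal depth, -757 for genes with at least 1 count, was -52.3 with at least 5 counts, -35.3 with at least 10 and -495 without thinning; without 1 library it ran from -940.5 to -664.5. Depth limits genes under 10 CPM, whose median SE was 0.389, against 0.0748 above 100 CPM.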
